A study of Danio rerio with 6 samples.

Results

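Cells sorted for the fluorescent protein mCherry from Tg(mpeg1:mCherry) zebrafish larvae were divided by whether the transcript of the reporter itself was counted in their well. Wells holding 1000 to 50000 gene transcripts were kept, 1640 of 2304, and were grouped by the mCherry row of the count table: 374 wells held 1 or more reporter transcripts (reporter-positive) and 1266 held 0 (reporter-negative). The reporter row therefore chose the classes, so its own values are a description and carry no test. Every one of these cells had been sorted as mCherry-fluorescent, so a reporter-negative well is one without a counted reporter transcript, not one without the protein.

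The larvae shared the TL strain, the mpeg1 reporter transgene and raising in 1-phenyl-2-thiourea, a blocker of pigment formation. The uninjured group (1 library) came from whole larvae at 4 days post fertilisation. The injured groups came from the dissected region of a needle puncture in the trunk muscle, taken at 1 day post injury (dpi; 2 libraries, larvae 5 days old), 2 dpi (1 library, 6 days) and 3 dpi (2 libraries, 7 days). Each library is 1 plate of 384 wells read by SORT-seq, which counts transcripts from their 3′ ends with molecular identifiers. The labels do not say that replicate plates came from separate pools of larvae. Tests within plates therefore give p-values that measure how the difference within a plate varies between plates, which may be technical. Over all 6 plates that spread also holds time after injury and age. All 6 plates use the same 384 well names, so no well can be traced to another plate by its name.

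In zebrafish, mpeg1 encodes perforin-2, a pore-forming protein of the phagosome, and its promoter is the usual driver for labelling macrophages and their relatives, the microglia of the brain. Metaphocytes, skin-resident cells that look like macrophages but share genes with epithelium, are also known to carry mpeg1 reporters. Neutrophils, the granulocytes that arrive first at a wound, are known for granule proteases and peroxidase and are not a usual target of this promoter. A fluorescent protein can outlast its transcript, and a plate method counts only some of the transcripts of a cell.

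The reporter transcript was scarce. Reporter-positive wells made up 17.4% of the uninjured plate, 26.7% (replicate 1) and 39.3% (replicate 2) at 1 dpi, 32.5% at 2 dpi, and 9.56% (replicate 1) and 13.3% (replicate 2) at 3 dpi. Of the 374 positive wells, 72 held 2 reporter transcripts, 76 held 3 or more, with a highest value of 9, and the rest held 1. Reporter levels are given as CPM, transcripts among 1000000 gene transcripts. The level was 52.9 CPM over all kept wells and 20.0 to 107 CPM by library. The 484 wells under 500 transcripts held 0 reporter transcripts among 83351 transcripts, which allows up to 36.0 CPM. That limit is above the level of several classes below, so free reporter RNA at those levels was not detectable at this depth. The row is named for the coding sequence while the assay reads 3′ ends, and the share of reporter transcripts it misses was not measured.

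Depth moved with the classes in every library. Median transcripts per well were 12920 in positive against 5338 in negative wells of the uninjured plate, 6926 against 2786 and 11002 against 5715 at 1 dpi, 15459 against 9119 at 2 dpi, and 6975 against 3588 and 5584 against 3711 at 3 dpi. Positive wells were thus 1.5 to 2.49 times deeper in all 6 libraries. Each well was therefore thinned to 1000 transcripts before levels were compared. The 19 wells left out for exceeding 50000 transcripts held 8 reporter transcripts. Thinning equalises the depth but not the choice of wells, which was made on the full counts.

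Which cell types carried the reporter RNA was described first. Clustering without the mCherry row gave 16 clusters, which were named from marker lists. Macrophage-like wells, whose summed macrophage markers averaged 12.7 per 1000 transcripts, were 969 of the 1640, so the labelled cell type was the largest class but not the only one. Granulocyte-like wells (230) averaged 36.8 granulocyte marker transcripts per 1000 against 1.59 in macrophage-like wells. Microglia-like wells (69) averaged 48.1 microglia marker transcripts per 1000, and metaphocyte-like wells (56) averaged 17.8 metaphocyte marker transcripts per 1000. The name microglia-like rests on these markers and does not place the cells in the brain. Of the microglia-like wells 13 came from whole uninjured larvae and the rest from injured trunk muscle. Smaller classes were fibroblast-like (33), keratinocyte-like (30) and erythroid-like (18) wells, and 235 wells in 3 clusters stayed unnamed. Of these, cluster 4 (111 wells) had low depth and a scattered set of leading genes, cluster 7 (91 wells) was led by muscle fibre genes although its macrophage markers averaged 11.8 per 1000, and cluster 12 (33 wells) was led by genes that include sftpba, cd74a and cd74b.

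Metaphocyte-like wells had the highest reporter level and keratinocyte-like wells the lowest. Macrophage-like wells held 541 reporter transcripts, 61.6 CPM (95% Poisson interval 56.5 to 67.0). Metaphocyte-like wells held 40, or 120 CPM (85.5 to 163), and microglia-like wells held 30, or 61.9 CPM (41.7 to 88.3). Granulocyte-like wells held 15, or 13.3 CPM (7.45 to 21.9), and keratinocyte-like wells held 1, or 2.93 CPM (0.0743 to 16.3). These intervals, and those of shares below, cover counting error only, and since libraries differ in reporter level, a class gathered from few plates takes over their level. Metaphocyte-like wells came mainly from the uninjured plate (12 wells, 156 CPM) and the plates of 3 dpi (15 wells at 17.3 and 21 wells at 121 CPM). In the uninjured plate and in replicate 2 of 3 dpi these values lie above those of macrophage-like wells of the same plate (37.8 and 50.8 CPM). In replicate 1 of 3 dpi, where metaphocyte-like wells held 1 reporter transcript, the value lies below that of macrophage-like wells (26.7 CPM). The 13 microglia-like wells of the uninjured plate held 0 reporter transcripts (95% Poisson interval 0 to 42.4 CPM). Microglia-like wells had 155 CPM in replicate 2 of 1 dpi (9 wells) and 73.9 at 2 dpi (14 wells). At 3 dpi they had 15.9 (12 wells) and 34.5 CPM (18 wells).

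**Figure D1:**
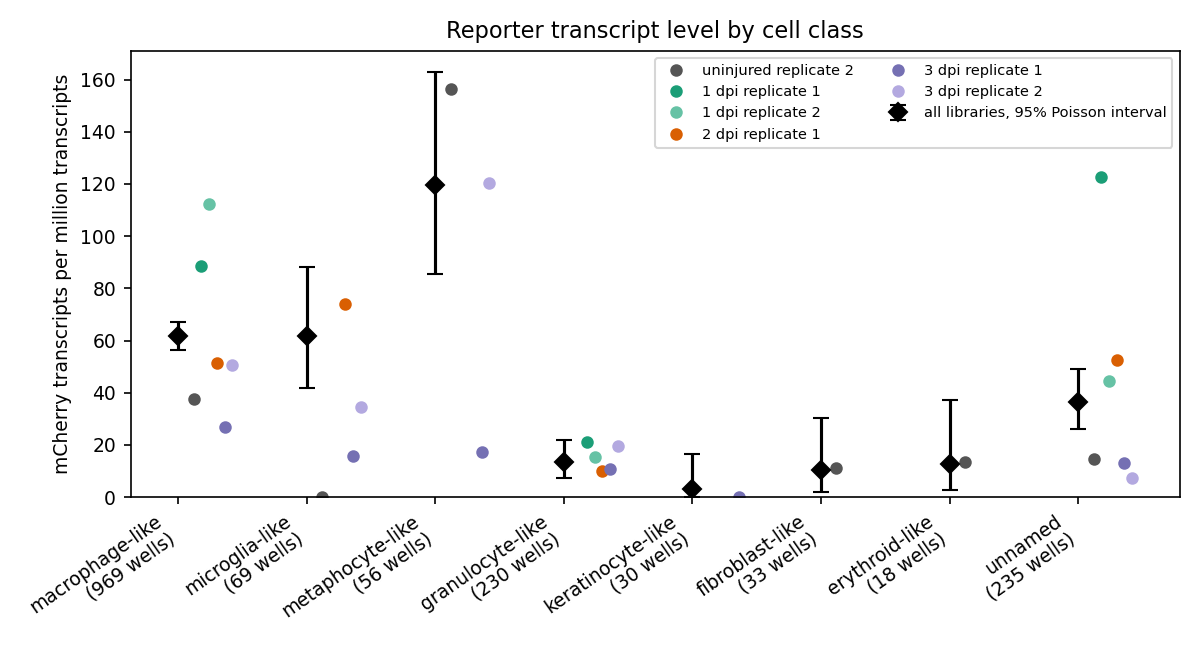
mCherry level in CPM (vertical axis) in each cell class (horizontal axis, with the number of wells): diamonds give the value over all 6 libraries with its 95% Poisson interval, and circles give single libraries with at least 10 wells of that class. Over all libraries, macrophage-like (61.6), microglia-like (61.9) and metaphocyte-like (120) wells lie above granulocyte-like (13.3) and keratinocyte-like (2.93) wells. The microglia-like wells of the uninjured plate lie at 0.

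As shares of wells, 30.0% of macrophage-like wells were reporter-positive (exact 95% interval 27.2 to 33.03; median 7670 transcripts), against 6.09% of granulocyte-like wells (3.37 to 10; median 3989 transcripts). At 1000 transcripts per well the shares were 5.68% (55 of 969 wells) and 0.870% (2 of 230 wells). Granulocytes are not a usual site of mpeg1 activity. Whether their reporter counts are free RNA or RNA of the cells was not tested. The shares of keratinocyte-like (3.33%, 0.0844 to 17.2), erythroid-like (5.56%, 0.141 to 27.3) and fibroblast-like wells (9.09%, 1.92 to 24.3) have intervals that hold the granulocyte-like value. The 14 reporter-positive granulocyte-like wells had a median of 36 granulocyte and 3.5 macrophage marker transcripts per 1000, and the 216 reporter-negative ones had 35 and 2. For comparison, reporter-positive macrophage-like wells had a median of 13 macrophage and 1 granulocyte marker transcripts per 1000. The highest macrophage marker sum among the positive granulocyte-like wells was 6. Since the markers also named the clusters, these sums describe the wells and do not check their naming.

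Macrophage-like wells were next set beside all other wells of the same library, as the share with a reporter transcript at 1000 transcripts. These are values of the reporter row and are given as a description. The share was 5.59% ± 3.26 (SD, n = 6 libraries) in macrophage-like and 3.48% ± 2.32 in other wells. It was higher in macrophage-like wells in 4 of 6 libraries, with a mean difference of 2.11 points, less than the spread of the differences (SD 3.29). Without thinning, the CPM levels were 61.3 ± 32.7 in macrophage-like and 43.1 ± 29.8 in other wells (SD, n = 6), higher in macrophage-like wells in 6 of 6 libraries (difference 18.2 CPM). Against granulocyte-like wells alone, the thinned share was higher in macrophage-like wells by 5.08 points on average, in 6 of 6 libraries. After thinning, only 2 of the 230 granulocyte-like wells were positive, 1 at 2 dpi and 1 in replicate 2 of 3 dpi. In the other libraries their share was 0, so any positive macrophage-like well made the difference positive. In replicate 2 of 3 dpi the shares were 1.52% and 1.37%. The CPM and granulocyte-like comparisons were chosen after the data were seen. The class of other wells includes the microglia-like and metaphocyte-like wells. With coarser clusters the difference turned to -0.70 points, and among wells of 2000 to 10000 transcripts it was 0.0139 points.

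On the 2 dpi plate, which held the most transcripts, reporter levels of the macrophage-like clusters were 57.3 CPM in cluster 0, 36.4 in cluster 1, 64.7 in cluster 2 and 68.8 in cluster 8. Cluster 2 was led by CTSK and ocstamp, genes known from bone-resorbing and fusing macrophages, and cluster 8 by ctsl.1, cd40 and il12a, genes of proteolysis and T-cell stimulation. On the same plate the microglia-like cluster 9 had 73.9 CPM and the granulocyte-like cluster 3 had 9.95. Reporter RNA was thus counted in every macrophage-like cluster of that plate, with cluster 1 the lowest of those with at least 10 wells.

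The reverse question, which cells were sorted without the reporter RNA, was asked of the class shares within positive and negative wells. Of the 374 positive wells 291 were macrophage-like, 31 unnamed, 18 metaphocyte-like, 15 microglia-like, 14 granulocyte-like, 3 fibroblast-like, 1 keratinocyte-like and 1 erythroid-like. Of the 1266 negative wells 678 were macrophage-like, 216 granulocyte-like, 204 unnamed, 54 microglia-like, 38 metaphocyte-like, 30 fibroblast-like, 29 keratinocyte-like and 17 erythroid-like. Macrophage-like wells were thus the largest class on both sides.

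By library, the macrophage-like share among positive against negative wells was 68.8% against 47.4% in the uninjured plate, 76.1% against 69.2% and 88.3% against 69.7% at 1 dpi, 79.8% against 55.7% at 2 dpi, and 79.2% against 50.2% and 65.0% against 40.8% at 3 dpi. The mean was 76.2% ± 8.36 against 55.5% ± 11.9 (SD, n = 6), a difference of 20.7 points. The positive wells held the larger share in 6 of 6 libraries, by 6.83 to 28.9 points. The granulocyte-like share was 4.47% ± 3.96 in positive and 16.4% ± 9.27 in negative wells, lower in positive wells in 6 of 6 libraries. Both differences gave the smallest p that 6 libraries allow in the exact sign-flip permutation test (p = 0.03125). They did not pass adjustment of that test over the 7 named classes (adjusted p = 0.109), and could not have. Several classes were absent from some plates, so too few classes could reach the smallest p. Among wells of 2000 to 10000 transcripts, where the depth gap was 1.09 to 1.61 times, the macrophage-like difference was 8.97 points (higher in 4 of 6 libraries) and the granulocyte-like difference was -11.1 points (lower in 6 of 6).

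The remaining named classes did not pass either, and none could have. Metaphocyte-like wells were 6.75% ± 7.50 of positive and 2.69% ± 2.51 of negative wells (adjusted p = 0.365), with the larger share among positive wells in 3 libraries and the smaller in 2. Microglia-like wells were 3.72% ± 2.49 of positive and 4.08% ± 1.89 of negative wells (adjusted p = 0.8125 in the exact permutation test). Keratinocyte-like wells were 0.235% ± 0.575 of positive and 2.12% ± 1.901 of negative wells, lower in 5 libraries with none higher (exact permutation test, adjusted p = 0.146). Unnamed wells were 7.25% ± 4.52 of positive and 15.7% ± 4.98 of negative wells, lower in 6 of 6 libraries.

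**Figure D2:**
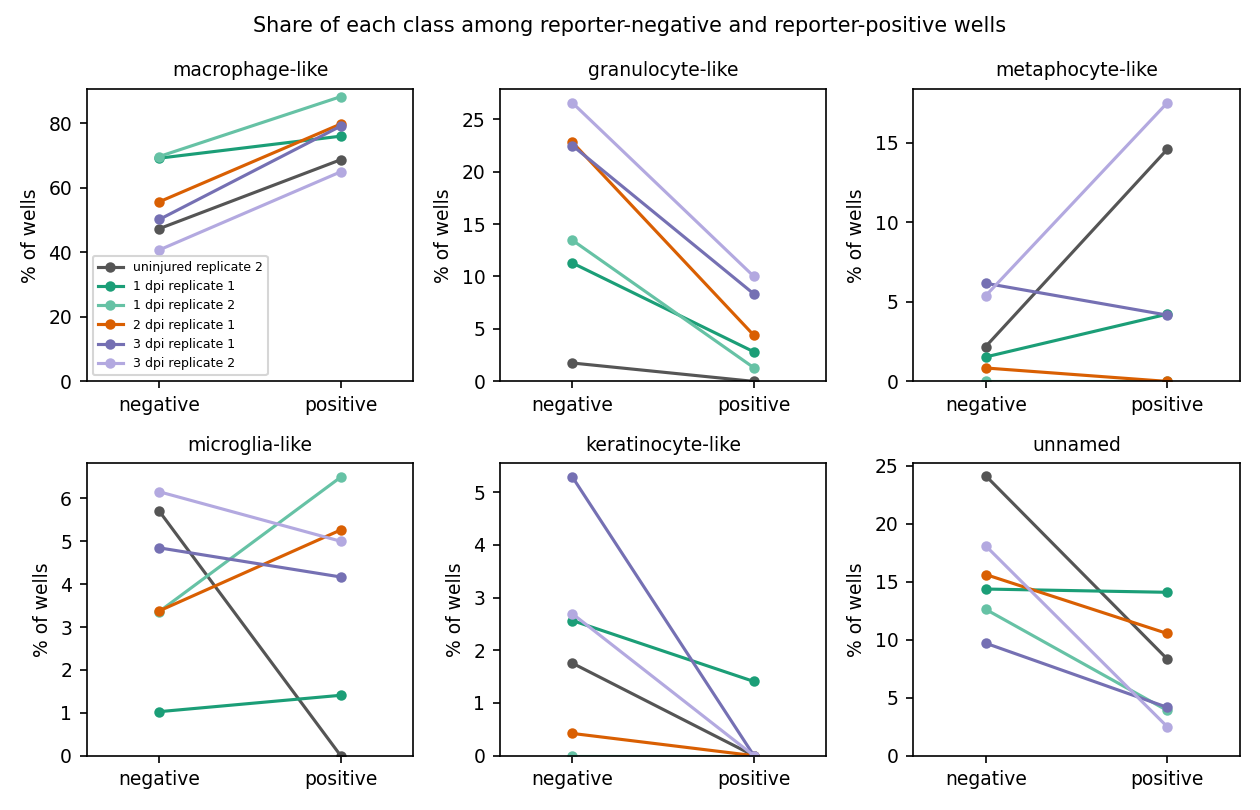
Share of wells in each class (vertical axis, percent) among reporter-negative and reporter-positive wells of the same library (joined points, 1 colour a library). The macrophage-like lines rise and the granulocyte-like lines fall in all 6 libraries, while metaphocyte-like and microglia-like lines go both ways.

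Wells with more reporter transcripts, pooled over the plates, were deeper and held a larger macrophage-like share. Deeper wells can hold more reporter counts, and the plates differ in reporter level and class shares. Wells with 2 or more numbered 39 in replicate 2 of 1 dpi and 55 at 2 dpi. At 3 dpi they numbered 3 and 12. The parts of depth, plate and reporter number in the values below were not separated. The median depth was 4652 transcripts in wells with 0 reporter transcripts, 8881 with 1, 12688 with 2 and 14651 with 3 or more. Macrophage-like wells made up 53.6%, 76.1%, 76.4% and 84.2% of these, and granulocyte-like wells 17.1%, 5.75%, 1.39% and 0% (0 of 76). The level of npsn, a granulocyte metalloprotease, was 1.08, 0.381, 0.0556 and 0 transcripts per 1000. The level of CTSZ, a lysosomal protease, was 0.580, 0.863, 1.26 and 1.395 transcripts per 1000. Other genes had no such order among the positive wells: with 1, 2 and 3 or more reporter transcripts MPEG1 had 0.544, 0.472 and 0.592, marco 0.385, 0.333 and 0.50, and CTSB 0.283, 0.597 and 0.447 transcripts per 1000. FOS had 0.381 with 0 reporter transcripts and 0.0974, 0.0694 and 0.105 with more.

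**Figure D3:**
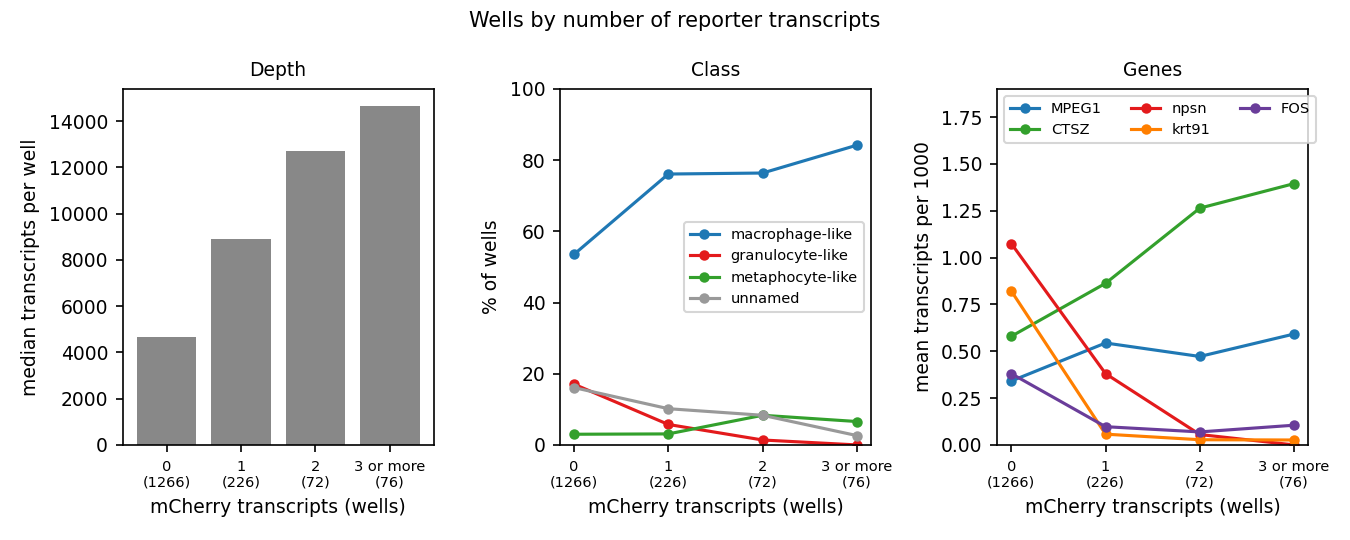
Wells with 0, 1, 2 and 3 or more mCherry transcripts, pooled over the libraries (horizontal axis, with the number of wells): median transcripts per well, share of wells in 4 classes, and mean level of 5 genes per 1000 transcripts after thinning. Depth runs from 4652 to 14651 and the macrophage-like share from 53.6% to 84.2%, while npsn falls from 1.08 to 0.

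The endogenous mpeg1 gene and the reporter were counted together in part of the wells. With so few reporter transcripts per well, how closely they are coupled within a cell cannot be told from these counts. The main copy in the files (MPEG1, ENSDARG00000055290) was counted in 324 of the 374 reporter-positive wells (86.6%) and in 646 of the 1266 negative wells (51.0%). At 1000 transcripts per well the shares were 36.4% and 24.4%, and among macrophage-like wells alone 37.1% and 33.6%. In positive wells 50 held no MPEG1 transcript, 27 of them macrophage-like. In every library MPEG1 was counted more often than the reporter: there were 4.93 to 12.7 MPEG1 transcripts for each reporter transcript. MPEG1 was counted in 75.2% of macrophage-like, 81.2% of microglia-like, 80.4% of metaphocyte-like and 6.09% of granulocyte-like wells. It was also counted in 48.5% of fibroblast-like, 13.3% of keratinocyte-like and 41.3% of unnamed wells, and in 9 of 18 erythroid-like wells.

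MPEG1 levels in the positive wells of the uninjured plate, 1 dpi replicates 1 and 2, 2 dpi, and 3 dpi replicates 1 and 2 were 0.396, 0.437, 0.559, 0.684, 0.5002 and 0.475 transcripts per 1000. In the negative wells they were 0.373, 0.436, 0.529, 0.346, 0.234 and 0.246. The values of positive wells were higher in all 6 libraries, by little at 4 and 5 days of age and by more from 2 dpi on. The fitted log2 difference was 0.39 (SE 0.17) and did not pass (edgeR adjusted p = 0.229). Within macrophage-like wells it was 0.11 (SE 0.18, adjusted p = 0.929), with 3 libraries higher and 3 lower. A second copy, MPEG1 (ENSDARG00000043093), fell under the count minimum. It was seen in 45 positive and 54 negative wells, at 19.1 and 17.4 CPM. Another, MPEG1 (ENSDARG00000078569), was seen in 0 positive and 5 negative wells. How reads were shared between the copies is not given in the sources used here, so their separate values are uncertain.

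Other macrophage identity genes did not pass at 1000 transcripts per well, and some passed under other thinning. The scavenger receptor gene marco had levels of 0.208, 0.445 and 0.625 transcripts per 1000 (lowest, median and highest library) in positive wells and 0.172, 0.232 and 0.325 in negative wells, higher in 5 of 6 libraries. Its log2 difference was 0.63 (SE 0.20, edgeR adjusted p = 0.0679). The matrix protein gene MFAP4, used as a macrophage marker in zebrafish, was present as ENSDARG00000088745 (log2 difference 0.31, SE 0.12, adjusted p = 0.169) and ENSDARG00000090783 (0.27, SE 0.12, adjusted p = 0.223), each higher in positive wells in 6 of 6 libraries. Without thinning, which keeps the depth gap, MPEG1 (ENSDARG00000055290; log2 difference 0.57, adjusted p = 0.00981), marco (0.61, adjusted p = 0.0211) and MFAP4 (ENSDARG00000088745; 0.47, adjusted p = 0.0140) passed. Without replicate 2 of 1 dpi marco passed as well (0.75, adjusted p = 0.0362). IRF8 (ENSDARG00000056407), a transcription factor that macrophages of zebrafish larvae need, was too low to test, at 50.8 CPM in positive and 46.9 in negative wells.

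Across all genes, reporter-positive and reporter-negative sums of the 6 libraries were compared within libraries (library as blocking factor), leaving out the mCherry row. Of 1368 genes tested 55 passed (4.02%), 13 higher and 42 lower in positive wells. Leaving out replicate 2 of 3 dpi lowered the count to 22, and leaving out the 2 dpi plate lowered it to 30. Scaling by library size alone gave 21 higher and 36 lower. In wells of 2000 to 10000 transcripts, with 801 genes tested, 2 passed as higher and 14 as lower. The tested genes as a whole were centred on 0, with a median log2 difference of -0.01 (positive minus negative) and 49.1% above 0. Fewer cells of a type and less RNA per cell cannot be told apart in such sums, and the class shares above moved with them.

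Genes lower in reporter-positive wells included those of granulocytes and of skin epithelium. Of the 42, 19 had their highest level in granulocyte-like wells, 15 in cluster 4, 7 in keratinocyte-like and 1 in erythroid-like wells. The class of highest level was not counted over all genes tested, so these counts describe the called genes alone. A highest level does not make a gene a marker of that class. The 7 include FOS, egr1 and hsp70l beside krt91 and krt4. Among the 19, ENSDARG00000082753 had 1.69 per 1000 in granulocyte-like wells against 1.67 in cluster 7. Of 6 granulocyte markers tested 5 passed as lower and none as higher (median log2 difference -1.97), against 4.02% of all genes in either direction. EPX, a granule peroxidase, had 0, 0.255 and 0.600 transcripts per 1000 (lowest, median and highest library) in positive wells and 0.0307, 1.26 and 2.11 in negative wells. It was lower in positive wells in 6 of 6 libraries, 5.03-fold in the fit (log2 difference -2.33, SE 0.19, adjusted p = 9.35e-10). The metalloprotease gene npsn had 0, 0.260 and 0.625 against 0.149, 1.08 and 1.70 transcripts per 1000, and was 4.88-fold lower (-2.29, SE 0.20, adjusted p = 1.20e-09). Ranges of the libraries overlapped for both genes, but no library went the other way. In wells of 2000 to 10000 transcripts the log2 differences were smaller, -1.40 for EPX and -1.62 for npsn, and without thinning EPX did not pass (-2.17, adjusted p = 0.0854).

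The matrix proteases MMP9 and mmp13a, which degrade gelatin and fibrillar collagen, were lower by the same order. MMP9 had 0.0625, 0.582 and 1.48 transcripts per 1000 in positive and 0.233, 2.68 and 3.56 in negative wells (4.12-fold lower, adjusted p = 0.00247). The collagenase gene mmp13a had 0.195, 0.501 and 1.13 against 0.430, 2.08 and 2.30 (3.70-fold lower, adjusted p = 0.00993). Both were lower in 6 of 6 libraries, and both also stand in the granulocyte marker list. With thinning to 2000 transcripts MMP9 did not pass (log2 difference -1.65, adjusted p = 0.104), nor with another thinning seed (adjusted p = 0.0660). Within macrophage-like wells their log2 differences were -0.44 and -0.66 and did not pass (adjusted p = 0.674 and 0.371). When granulocyte-like wells were left out, MMP9 still passed (log2 difference -1.09, adjusted p = 0.0144) and mmp13a did not (-0.80, adjusted p = 0.132). The tumour necrosis factor family gene tnfb was 1.59-fold lower in all wells (adjusted p = 0.00247) and had a log2 difference of -0.04 in macrophage-like wells, where it did not pass (adjusted p = 0.962). LIM domain gene limd2 (log2 difference -1.83), cfbl (-1.55) and ENSDARG00000041524 (-1.69) also passed, were lower in 6 of 6 libraries and had their highest level in granulocyte-like wells.

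Of 5 keratinocyte markers tested 2 passed as lower and none as higher (median log2 difference -0.45), against 4.02% of all genes in either direction. The keratin gene krt91 had 0, 0.0321 and 0.375 transcripts per 1000 in positive and 0, 0.466 and 2.79 in negative wells. It was lower in 5 libraries and at 0 on both sides in replicate 2 of 1 dpi. Its fitted log2 difference, which depends on the prior count where a class is near 0, was -3.42 (SE 0.28, adjusted p = 9.35e-10). The keratin gene krt4 was lower in 5 of 6 libraries (log2 difference -2.52, SE 0.29, adjusted p = 5.77e-07). With thinning to 2000 transcripts neither passed (adjusted p = 0.0693 for krt91 and 0.0581 for krt4), and krt4 did not pass in DESeq2 (adjusted p = 0.0692) or without thinning (0.0946). The transcripts came from few wells: krt91 averaged 27.4 per 1000 in the 30 keratinocyte-like wells and 0.0691 in macrophage-like wells.

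A further set of lower genes belonged to cluster 4, low-depth wells with no leading cell type markers. RANBP10, at 0.0510 against 0.244 transcripts per 1000 (medians of the libraries), was 4.17-fold lower in positive wells (adjusted p = 1.71e-04). si:dkey-19a16.4 (log2 difference -1.75), ENSDARG00000080381 (-1.43) and ECRG4 (-1.07) also passed and were lower in 6 of 6 libraries. RANBP10 averaged 2.11 per 1000 in cluster 4 and 0.0826 in macrophage-like wells. Without the cluster 4 wells 34 genes passed over all, 9 higher and 25 lower. Cluster 4 had 6 positive wells of 111 and a median of 2797 transcripts per well, and the part of depth in its separation was not tested. Cluster 7 had a like median of 2819 transcripts per well, with 18 positive wells of 91.

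Immediate early genes are those that cells switch on within minutes of a stimulus such as handling or wounding. FOS, a transcription factor of this kind, had 0.333, 0.0282, 0.0779, 0.0351, 0.167 and 0.0750 transcripts per 1000 in positive wells of the uninjured plate, 1 dpi replicates 1 and 2, 2 dpi, and 3 dpi replicates 1 and 2. In negative wells of the same plates it had 0.737, 0.426, 0.101, 0.139, 0.348 and 0.412. It was lower in positive wells in 6 of 6 libraries, 3.53-fold in the fit (log2 difference -1.82, SE 0.28, adjusted p = 1.37e-04), and also passed in wells of 2000 to 10000 transcripts (-1.91, adjusted p = 0.00166). Of 13 genes of the stress and immediate early list 2 passed as lower, egr1 (log2 difference -1.39, adjusted p = 0.0183) and ATF3 (-0.97, adjusted p = 0.0260), none as higher, and all 13 estimates were below 0 (median -0.55). Neither call held in DESeq2 (adjusted p = 0.0954 for egr1 and 0.119 for ATF3) or without thinning (0.501 and 0.172), and DESeq2 called 0 of the 13. Of the 13, 7 had an unadjusted p under 0.05 in edgeR. Over all genes tested 4.02% passed in either direction, 49.1% of estimates were above 0, and the share under that unadjusted threshold was smaller. The differences in shares were not tested. FOS is not in that list under this symbol, and did not pass with classes set by thinned counts (log2 difference -1.01, adjusted p = 0.540). FOS averaged 2.03 transcripts per 1000 in keratinocyte-like, 0.231 in macrophage-like and 0.0913 in granulocyte-like wells.

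Genes higher in reporter-positive wells were fewer and changed less, and included genes of the lysosome, the compartment where macrophages digest what they engulf. Of 23 lysosome genes tested 3 passed as higher in edgeR and none as lower, with 20 estimates above 0 (median log2 difference 0.35). Over all genes tested 4.02% passed in either direction and 49.1% of estimates were above 0. The cysteine protease gene CTSB had 0.167, 0.348 and 0.550 transcripts per 1000 in positive wells (lowest, median and highest library) and 0.0441, 0.183 and 0.277 in negative wells. It was higher in 6 of 6 libraries and 1.69-fold in the fit (log2 difference 0.76, SE 0.21, adjusted p = 0.0343). It did not pass with another thinning seed (adjusted p = 0.115), without thinning (0.40, adjusted p = 0.238) or in DESeq2 (adjusted p = 0.0954). CTSZ, another cathepsin, had 0.667, 0.855 and 1.59 against 0.339, 0.546 and 1.02 and was 1.48-fold higher in 6 of 6 libraries (adjusted p = 0.00820). DESeq2 called 1 lysosome gene. ATP6V0C, a subunit of the proton pump that acidifies lysosomes, was 1.27-fold higher in 5 of 6 libraries (adjusted p = 0.0473). The macrophage marker list had 1 gene of 17 that passed, the cathepsin gene ctss2.2 (1.49-fold higher in 5 of 6 libraries, adjusted p = 0.0192). That 1 of 17 is near the 4.02% that passed over all genes. Of the estimates of this list 16 of 17 were above 0, with a median of 0.32.

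Other higher genes were the chemokine gene ccl35.2 (log2 difference 0.37, adjusted p = 0.0230), SPTLC2, which encodes a subunit of the first enzyme of sphingolipid synthesis (0.58, adjusted p = 0.0370), the stomatin family gene STOML3 (0.69, adjusted p = 0.0183), olmf4l1 (0.39, adjusted p = 0.0495) and the unnamed genes ENSDARG00000025237 (1.13, adjusted p = 0.0183) and ENSDARG00000086947 (0.61, adjusted p = 0.00118). Each was higher in 6 of 6 libraries. With another thinning seed SPTLC2 (log2 difference 0.37, adjusted p = 0.290), ENSDARG00000025237 (0.77, adjusted p = 0.101) and ccl35.2 (0.32, adjusted p = 0.0726) did not pass. Of these genes ENSDARG00000086947 alone passed in every fit that left out 1 library. All of these higher genes had lower levels in granulocyte-like than in macrophage-like wells, as CTSZ with 0.0217 against 0.948 transcripts per 1000. Macrophage-like wells were not always the highest class. Of the 13 higher genes 4 had their highest level there, 3 in cluster 7, 2 in cluster 12 and 2 in metaphocyte-like wells. The microglia-like and fibroblast-like wells had 1 each. CTSZ was highest in cluster 7, at 1.02 per 1000. These counts describe the called genes alone. Without granulocyte-like wells 1 gene passed as higher, ENSDARG00000086947 (log2 difference 0.43, adjusted p = 0.0285), and 22 as lower.

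Several other lists had no gene that passed in edgeR or in DESeq2. These were microglia markers (7 tested, 1 with an unadjusted p under 0.05), antigen presentation (6 and 0), complement and phagocytosis (7 and 3), lipoproteins (3 and 0), cell cycle (2 and 1), oxidative phosphorylation (25 and 1), cytosolic ribosomal proteins (63 and 5) and endoplasmic reticulum folding (11 and 1). Over all genes tested the share with an unadjusted p under 0.05 was smaller than in complement and phagocytosis and in cell cycle. That share was larger than in each of the other lists just named. For the counts of calls that follow, 4.02% of all genes tested passed in either direction. The list of the mpeg1 gene and myeloid transcription factors had 8 tested members, of which egr1 passed as lower. Among 7 chemokine and receptor genes ccl35.2 passed as higher (median log2 difference -0.19), among 9 inflammatory mediators tnfb passed as lower (median -0.23), and among 5 matrix protease genes MMP9 and mmp13a passed as lower (median -0.42). Single members of the metaphocyte, muscle, lymphoid T and NK, and thrombocyte lists were tested and did not pass, and no member of the fibroblast, endothelial, erythroid, B lymphoid, neural, pigment and digestive lists was high enough to test.

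Restricting both sides to macrophage-like wells left few calls. Of 1090 genes tested 3 passed (0.275%), all lower in positive wells, and 101 had an unadjusted p under 0.05. DESeq2 called 0 of them, with 39 at an unadjusted p under 0.05. The 3 genes, named after their values were seen, were FOS (log2 difference -1.53, SE 0.35, adjusted p = 0.0157), si:dkey-119g10.4 (-0.85, SE 0.19, adjusted p = 0.0121) and ENSDARG00000091334 (-0.44, SE 0.11, adjusted p = 0.0357). The latter 2 were each lower in positive wells in 4 of 6 libraries and higher in 2. FOS in macrophage-like wells had 0.364, 0.0371, 0.0883, 0.0220, 0.105 and 0.0385 transcripts per 1000 in positive and 0.380, 0.578, 0.0482, 0.189, 0.175 and 0.293 in negative wells, in the same order of plates as above. It was lower in positive wells in 5 of 6 libraries, and without replicate 1 of 1 dpi it did not pass (log2 difference -0.94, adjusted p = 0.345), nor without the 2 dpi plate (adjusted p = 0.350) or replicate 2 of 3 dpi (adjusted p = 0.159). Leaving out replicate 1 of 1 dpi gave 0 calls (94 genes at an unadjusted p under 0.05), and leaving out replicate 1 of 3 dpi gave 8. Leaving out either replicate 2, of 1 dpi or of 3 dpi, gave 1. With thinning to 2000 transcripts 3 genes passed, none of them among these 3.

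Of the 55 genes called over all wells, 33 could also be tested in macrophage-like wells and 2 of them passed there, which is 3.64% of the first list and 66.7% of the second. The rest of the 55 were too low to test there. Of the 12 higher genes tested in both, all 12 kept their sign (median log2 difference 0.33 against 0.58 over all wells) and 9 had an unadjusted p under 0.05. Of the 21 lower genes 20 kept their sign (-0.35 against -0.77) and 8 had an unadjusted p under 0.05. These genes were chosen by a fit that held the same wells, 291 of its 374 positive and 678 of its 1266 negative. Kept signs and small unadjusted p in macrophage-like wells are therefore no separate evidence. A missed threshold does not show that the macrophage-like wells were alike: CTSB had a log2 difference of 0.61 (SE 0.22, adjusted p = 0.239), CTSZ 0.41 (SE 0.14, adjusted p = 0.194) and ENSDARG00000025237 0.92 (SE 0.28, adjusted p = 0.124). In these wells, too, positive wells were deeper, with medians of 12169 and 5732 transcripts.

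**Figure D4:**
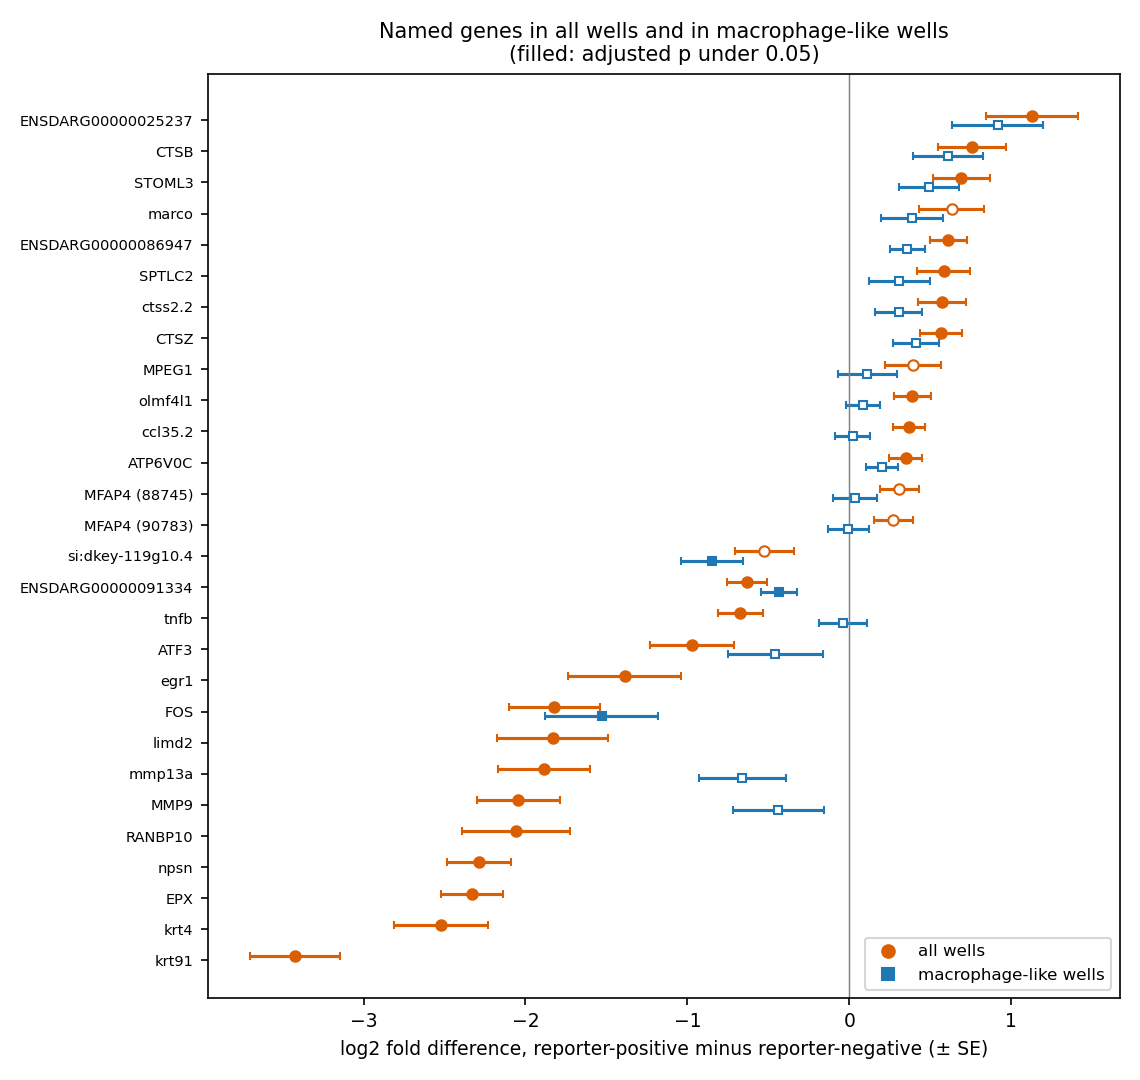
Log2 difference between reporter-positive and reporter-negative wells (horizontal axis, positive minus negative, with SE) for the named genes, over all wells (circles) and within macrophage-like wells (squares), filled where the adjusted p is under 0.05. Genes of granulocytes and keratinocytes lie far below 0 over all wells, for example EPX at -2.33, and most values within macrophage-like wells lie nearer to 0. Of these FOS stays at -1.53.

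Time after injury was compared between 1 and 3 dpi, the groups with 2 libraries. At 1000 transcripts per well the reporter-positive share was 6.39% and 9.69% at 1 dpi and 3.98% and 2.00% at 3 dpi. The groups did not overlap (difference -5.05 points); as values of the reporter row they are given as a description, and 2 against 2 libraries could not pass a permutation test in any case. The reporter level was 88.2 and 107 CPM at 1 dpi and 20.0 and 40.4 at 3 dpi, and that of MPEG1 was 435 and 552 CPM against 239.6 and 239.7. In macrophage-like wells alone the thinned shares overlapped: the plates of 1 dpi had 5.82% and 11.3%, those of 3 dpi 6.02% and 1.52%. In these wells the reporter levels were 88.6 and 112 against 26.7 and 50.8 CPM. Different clusters held the macrophage-like wells at these times, among them cluster 6, whose wells all came from replicate 2 of 3 dpi.

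The difference between positive and negative wells itself changed with time for 4 of 1219 genes (0.328%), while 87 had an unadjusted p under 0.05. DESeq2 called 0 of them, with 19 at an unadjusted p under 0.05. The lysosomal protease gene ctsl.1 and the collagenase gene mmp13a had higher contrasts at 3 dpi, and the apolipoprotein genes apoeb and apoc1, which also mark microglia, had lower ones. For ctsl.1 the positive and negative levels were 1.14 and 0.990, then 0.883 and 1.02 transcripts per 1000 in the plates of 1 dpi, and 1.13 and 0.441, then 2.15 and 0.562 at 3 dpi. For apoc1 they were 2.40 and 2.03, then 2.29 and 2.12 at 1 dpi, and 1.38 and 2.40, then 1.33 and 2.35 at 3 dpi. Positive wells held more ctsl.1 in both plates of 3 dpi and less apoc1 there. Without replicate 2 of 1 dpi none of the 4 passed, with 59 genes at an unadjusted p under 0.05. Without replicate 2 of 3 dpi 3 genes passed, none of them among the 4. Without replicate 1 of 1 dpi apoeb and apoc1 did not pass (adjusted p = 0.190 and 0.496).

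**Figure D5:**
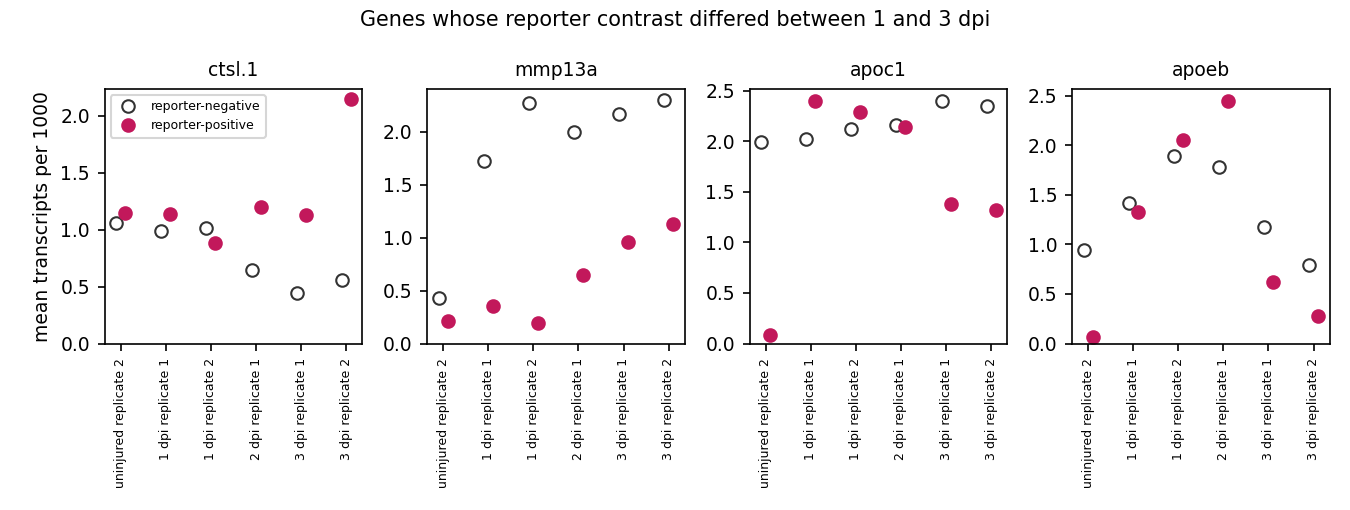
Mean level per 1000 transcripts (vertical axis) of the 4 genes whose reporter contrast differed between 1 and 3 dpi, in reporter-negative (open) and reporter-positive (filled) wells of each library. For ctsl.1 the points lie apart at 3 dpi, with 1.13 and 2.15 in positive wells, and for apoc1 the positive wells lie below the negative ones at 3 dpi and near 0 in the uninjured plate.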

How the data were processed

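The authors deposited expected counts per gene and well, which need not be whole numbers. BWA and Zv9 appear in the submitters' processing notes without a role, and the counter is not given in the sources used here. Counts were rounded, spike-ins were left out, and wells of 1000 to 50000 transcripts were kept. They held 1339894 to 4407616 transcripts per library. Symbols matched 19001 of 25130 gene identifiers, and many are those of the human counterpart. No doublet caller was run, since each well received a sorted event.

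Wells were clustered with scanpy 1.11.5 on 2000 variable genes centred per library (30 components, 15 neighbours, Leiden resolution 1), without mCherry. A cluster took a name other than macrophage-like where at least 3 of its top 10 genes were markers of 1 list and no other list had as many. Except for the microglia list, its macrophage marker sum also had to be under 8 per 1000, which left cluster 7 unnamed. Any name needed at least 3 markers of its list, each detected in at least 10% of the wells. Macrophage-like clusters needed a marker sum of 8 per 1000, a threshold set after the marker levels were seen. No list could have more markers than the macrophage list among their top 10 genes. Macrophage markers did not have to lead them: clusters 5 and 8 had 2 in the top 10, clusters 0, 1, 2 and 6 had 0. Sums per class and library after thinning to 1000 transcripts (12 sums) were tested with edgeR 4.0.16 (TMM, filterByExpr, robust quasi-likelihood, library block, 5 residual degrees of freedom, Benjamini-Hochberg over all genes, threshold 0.05), with DESeq2 1.42.0 as an alternative. SE values of log2 differences were derived from the edgeR test, as the absolute difference divided by the square root of its F statistic. The scripts were tested on simulated data. Class shares were compared by exact two-sided sign-flip permutation tests, and reporter shares were described.

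Genes named in the text are those called with the same direction in every library at an average log2 CPM of at least 7 (at most 12 a direction, ranked by size of change), plus mpeg1, marco, mfap4 and irf8, and called members of 13 gene lists and 15 marker lists. Exceptions are stated. The classes, members and lists were chosen with earlier results of these data known.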

Additional observations from a re-analysis of the deposited data

Results flagged for a closer look

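For 4 genes the difference between reporter-positive and reporter-negative wells itself differed between 1 and 3 dpi by an interaction term (edgeR, 4 libraries, 2 residual degrees of freedom). The change of the log2 difference from 1 to 3 dpi was 1.58 for ctsl.1 (SE 0.28, adjusted p = 4.26e-05) and 1.65 for mmp13a (SE 0.34, adjusted p = 6.68e-04). It was -1.34 for apoeb (SE 0.33, adjusted p = 0.0168) and -1.12 for apoc1 (SE 0.26, adjusted p = 0.00626). DESeq2 gave an adjusted p of 0.999 for all 4. The mmp13a level of positive wells was 0.352 and 0.195 transcripts per 1000 at 1 dpi against 0.959 and 1.13 at 3 dpi, and that of negative wells was 1.72 and 2.27 against 2.16 and 2.30. The uninjured plate, outside this comparison, had 0.0833 apoc1 transcripts per 1000 in positive and 2.00 in negative wells.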

How the results depend on the processing

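Of the count of 55 genes over all wells, DESeq2 gave 30, no count minimum 129 (0 higher), no library block 0 (67 at an unadjusted p under 0.05), no thinning 182, 2 or more reporter transcripts 29, classes set by thinned counts 11, wells of 2000 to 10000 transcripts 16, and, chosen after the data were seen, no granulocyte-like wells 23 and no cluster 4 wells 34. Leaving out 1 library gave 22 to 61. Another thinning seed gave 57 calls, 38 of them among the 55, and thinning to 2000 transcripts 63, with 33. With classes set by thinned counts, olmf4l1 (-0.28) and ENSDARG00000086947 (-0.0485) changed sign, and the cause was not tested.

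For macrophage-like wells, where 3 genes passed, DESeq2 (39 at an unadjusted p under 0.05), no library block (19) and classes set by thinned counts (58) gave 0, no count minimum gave 8, and no thinning, another seed, 2 or more reporter transcripts and wells of 2000 to 10000 transcripts gave 1 each. Leaving out 1 library gave 0 to 8. Replicate 1 of 3 dpi could not enter with 2 or more reporter transcripts, nor replicate 2 of 3 dpi with classes set by thinned counts, for want of 5 positive wells. For the 4 genes between times, DESeq2 (19) and no count minimum (144) gave 0, no thinning gave 2, and leaving out 1 library gave 0 to 4, with 0 of the 4 among the 3 called without replicate 2 of 3 dpi.

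The difference in reporter-positive share between macrophage-like and other wells, 2.11 points, was -0.70 with coarser clusters, 0.54 with finer ones, 14.7 without thinning, 6.53 for 2 or more reporter transcripts, 18.2 CPM as a level and 5.08 against granulocyte-like wells (the last 2 chosen after the data were seen), and 1.17 to 2.93 without 1 library. Shares without thinning also carry the depth. The CPM level is taken per transcript, so deeper wells weigh more in it. The macrophage-like share difference stayed within 8.87 to 23.4 points and the granulocyte-like one within -15.0 to -10.2 points, none past the adjusted threshold. Without 1 library they were 19.03 to 23.4 and -13.9 to -10.6.

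The reporter-positive share at 3 minus 1 dpi was -6.70 to -3.40 points without 1 library. With a replicate block it was -5.05. Deviations of the replicates numbered 1 at both times correlated (r = 0.456 across 3118 genes), but there are only 2 pairs and no label gives the number a shared batch, so it was not used as pairing. Few reporter transcripts per well limit every class assigned here.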
